A study of Mus musculus with 16 samples.

Results

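The genes described here are 10 genes that T cells use to hold, couple and tune their antigen receptor: Cd3d, Cd3e, Cd3g, Cd247, Lck, Cd2, Cd28, Trat1, Il2rb and Thy1. They were chosen by symbol from the count tables of mouse dorsal skin, where all 10 of 10 had a row among 23282 rows. Of these, 9 passed a filter on low counts that left 14854 rows for testing, and Trat1 did not.

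The study asked how Bojungikgi-tang, a herbal decoction abbreviated BJIKT, acts on skin inflammation in mice that receive few ligands of the aryl hydrocarbon receptor (AhR). Male wild-type C57BL/6N mice were bought at 3 weeks of age and kept for 1 week before the diets began. The Cont group ate normal chow. The LowAhR group ate a low AhR ligand diet for 12 weeks on ligand-free paper bedding, so the diet and the bedding cannot be told apart. The LowAhR+AD group had the same diet and bedding, and after 2 weeks its dorsal skin was painted with 1% DNCB (2,4-dinitrochlorobenzene, a contact sensitiser used to model atopic dermatitis) 2 times a week for 10 weeks. The LowAhR+AD+BJ group was in addition given 1 g/kg of BJIKT a day by gavage. There was no DNCB group on normal chow, and what vehicle the other groups received is not given in the sources used here. Each group had 4 libraries from 4 skin samples, 16 in all, and they were read with a 3' end protocol that counts fragments near the end of each transcript.

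T cells recognise antigen through a variable receptor that cannot signal by itself. The invariant CD3 chains and the zeta chain carry it to the surface and pass the signal inward through tyrosine motifs, which the kinase Lck phosphorylates. CD2 and CD28 add adhesion and costimulation, TRIM (Trat1) is a transmembrane adaptor of the receptor, and IL-2 receptor beta receives IL-2 and IL-15. Mouse skin holds dendritic epidermal T cells with a gamma-delta receptor in the epidermis as well as T cells in the dermis. Their receptors signal through CD3 chains, but not every kind of receptor need contain each of these chains. Thy1 is a surface protein of mouse T cells that fibroblasts and other cells also make.

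The genes for 3 of the CD3 chains lie side by side on chromosome 9, here in the GRCm38 build and the GENCODE annotation. Cd3g lies at chr9:44969572-44980431 on the minus strand, Cd3d at chr9:44981786-44987339 on the plus strand and Cd3e at chr9:44998740-45009627 on the minus strand. Cd3g and Cd3d point away from each other across a gap of 1354 bases, and the whole cluster spans 40056 bases. Their promoter windows are shown because Cd3e and Cd3g were the members that fell after DNCB and share this neighbourhood. Each window is 300 bases from RefSeq (GRCm38.p6), 250 before and 50 after the gene start, written 5′ to 3′ in the direction of the gene. Capitals mark matches to the motifs searched, at chr9:44980382-44980681 on the minus strand, chr9:44981536-44981835 on the plus strand and chr9:45009562-45009861 on the minus strand.
Cd3g: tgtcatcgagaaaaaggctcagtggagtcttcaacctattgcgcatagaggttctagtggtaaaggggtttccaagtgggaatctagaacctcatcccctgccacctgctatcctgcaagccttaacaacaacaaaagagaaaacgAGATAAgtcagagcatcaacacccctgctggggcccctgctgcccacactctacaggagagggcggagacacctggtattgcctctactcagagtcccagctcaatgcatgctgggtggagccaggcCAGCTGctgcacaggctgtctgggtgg
Cd3d: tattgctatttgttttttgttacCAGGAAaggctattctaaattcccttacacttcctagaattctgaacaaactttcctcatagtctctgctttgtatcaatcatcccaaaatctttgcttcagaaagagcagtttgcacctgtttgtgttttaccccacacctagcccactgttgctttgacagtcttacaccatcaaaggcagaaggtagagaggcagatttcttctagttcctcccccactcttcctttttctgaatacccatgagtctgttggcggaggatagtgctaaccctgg
Cd3e: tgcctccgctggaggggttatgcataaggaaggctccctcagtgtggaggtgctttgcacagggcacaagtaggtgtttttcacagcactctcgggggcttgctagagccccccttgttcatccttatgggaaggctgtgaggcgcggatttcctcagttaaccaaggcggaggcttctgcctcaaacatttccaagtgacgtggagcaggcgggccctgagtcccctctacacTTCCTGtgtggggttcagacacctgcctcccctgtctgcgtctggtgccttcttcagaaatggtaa

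Letters of 5 motifs were searched on both strands. Cd3d and Cd3e each held 1 match to an ETS core (CAGGAA), at 227 and 16 bases before the RefSeq start. For Cd3e that start lies inside the GENCODE gene given above, and the match begins at the first base of that gene. For Cd3g and Cd3d the RefSeq and GENCODE starts are the same. Cd3g held no match to that core, and it held 1 match to a GATA motif (AGATAA), 104 bases before the start, and 1 to an E-box (CAGCTG) within the transcript. None of the 3 held TGTGGT, a RUNX motif, or TATAAA. Of all 32851 windows, 30.6% held the ETS core, 11.2% the GATA motif, 16.3% the E-box, 16.8% the RUNX motif and 13.6% the TATA letters. RefSeq windows were found for 6 of the 10 genes, 7 windows in all, and 6 of these held the ETS core. A match is a stretch of letters and was not tested as a binding site.

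The libraries held between 7080508 and 13467477 counts, and the totals of both DNCB groups lay above those of Cont and LowAhR without overlap. LowAhR+AD replicate 1 stood apart. Among its genes for which the other libraries of its group predicted 20 to 40 counts, 38.2% were at 0, against at most 13.6% in any other library. For genes predicted at 60 to 120 counts the share was 10.7%, against at most 1.27% elsewhere. The values of the tested T cell genes in LowAhR+AD against LowAhR are therefore also given without that library. Levels below are CPM, counts per 1000000 counts of a library whose total was scaled by its TMM factor. A count of 0 allows up to 3 counts, which is 0.229 to 0.406 CPM in these libraries and covers counting error only.

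Cd3e and Cd3g fell in LowAhR+AD against LowAhR, and the other CD3 chain genes were lower on average without passing the test. Cd3g codes for the gamma chain, which pairs with epsilon. In Cont it was at 8.72, 10.8, 7.40 and 18.5 CPM, and in LowAhR at 17.3, 11.3, 5.46 and 5.37 CPM. In LowAhR+AD it was at 0, 0, 0.854 and 0.321 CPM, and in LowAhR+AD+BJ at 1.73, 2.85, 5.13 and 0 CPM. All 4 LowAhR+AD libraries lay below every Cont and every LowAhR library, and 3 of 4 LowAhR+AD+BJ libraries lay between. The group means were 11.4 ± 4.98, 9.85 ± 5.68, 0.294 ± 0.403 and 2.43 ± 2.15 CPM (SD, n = 4 each). LowAhR+AD differed from LowAhR by -5.00 on the log2 scale (SE 1.13, adjusted p = 0.00855, edgeR quasi-likelihood test with Benjamini-Hochberg adjustment over 14854 rows). The exact two-sided permutation test of log2 CPM gave p = 0.0286, the smallest that 4 against 4 libraries allow. With LowAhR+AD replicate 1 left out, the fitted value was -4.61 (edgeR adjusted p = 0.0133).

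Cd3e codes for the epsilon chain, which every CD3 dimer at the surface contains. It was at 0.641, 2.07, 1.97 and 1.56 CPM in Cont and at 4.06, 6.65, 2.60 and 1.67 CPM in LowAhR. In LowAhR+AD it was at 0, 0, 0.155 and 0 CPM, and in LowAhR+AD+BJ at 0, 0.102, 1.79 and 0.504 CPM. Only 2 reads of Cd3e were counted over the 4 LowAhR+AD libraries, against 116 over those of LowAhR and 50 over those of Cont. Allowing for library size, the pooled level was 93.9 times higher in LowAhR than in LowAhR+AD, with a 95% counting interval of 25.4 to 784 that leaves out the spread between mice. The fitted log2 fold change was -6.18 (SE 1.53, edgeR adjusted p = 0.0139), a value that depends on the prior count at so few reads. No value of LowAhR+AD reached those of LowAhR (exact permutation p = 0.0286). With replicate 1 of LowAhR+AD left out, the fit gave -5.85 (edgeR adjusted p = 0.0310).

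Cd3d, the delta chain, was at 7.95, 3.87, 3.08 and 14.1 CPM in Cont and at 7.57, 6.40, 10.8 and 9.42 CPM in LowAhR. It was at 0, 0.984, 4.27 and 1.04 CPM in LowAhR+AD and at 2.46, 0, 8.32 and 2.12 CPM in LowAhR+AD+BJ. Every LowAhR+AD library lay below every LowAhR library, though replicate 3 lay above 2 of the Cont libraries. Against LowAhR the log2 fold change was -2.43 (SE 1.09, edgeR adjusted p = 0.152, exact permutation p = 0.0286). Cd3d thus did not pass the test over all genes. It was at -2.02 without LowAhR+AD replicate 1 (edgeR adjusted p = 0.202) and at -3.64 without replicate 3 (edgeR adjusted p = 0.0590).

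Cd247 codes for the zeta chain and lies on another chromosome, at chr1:165788681-165877277. Its values were 6.41, 3.23, 3.95 and 3.11 CPM in Cont, 8.11, 7.80, 1.95 and 4.17 CPM in LowAhR, 0, 0, 0.699 and 2.65 CPM in LowAhR+AD and 0, 3.36, 2.33 and 1.01 CPM in LowAhR+AD+BJ. LowAhR+AD lay below all Cont libraries, and 3 of its 4 libraries lay below all LowAhR libraries. The log2 fold change against LowAhR was -2.70 (SE 1.27, edgeR adjusted p = 0.174, exact permutation p = 0.0571), and limma voom gave -4.35 with an adjusted p of 0.0438. Without LowAhR+AD replicate 1 edgeR gave -2.31 (adjusted p = 0.241), and without replicate 4 it gave -4.48 (adjusted p = 0.0606). The gene overlaps Pou2f1 on the opposite strand, and whether counting used strand is not given in the sources used here, so reads of the pair may be mixed. Pou2f1 differed by 0.04 in the same comparison (edgeR adjusted p = 0.950).

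**Figure D1:**
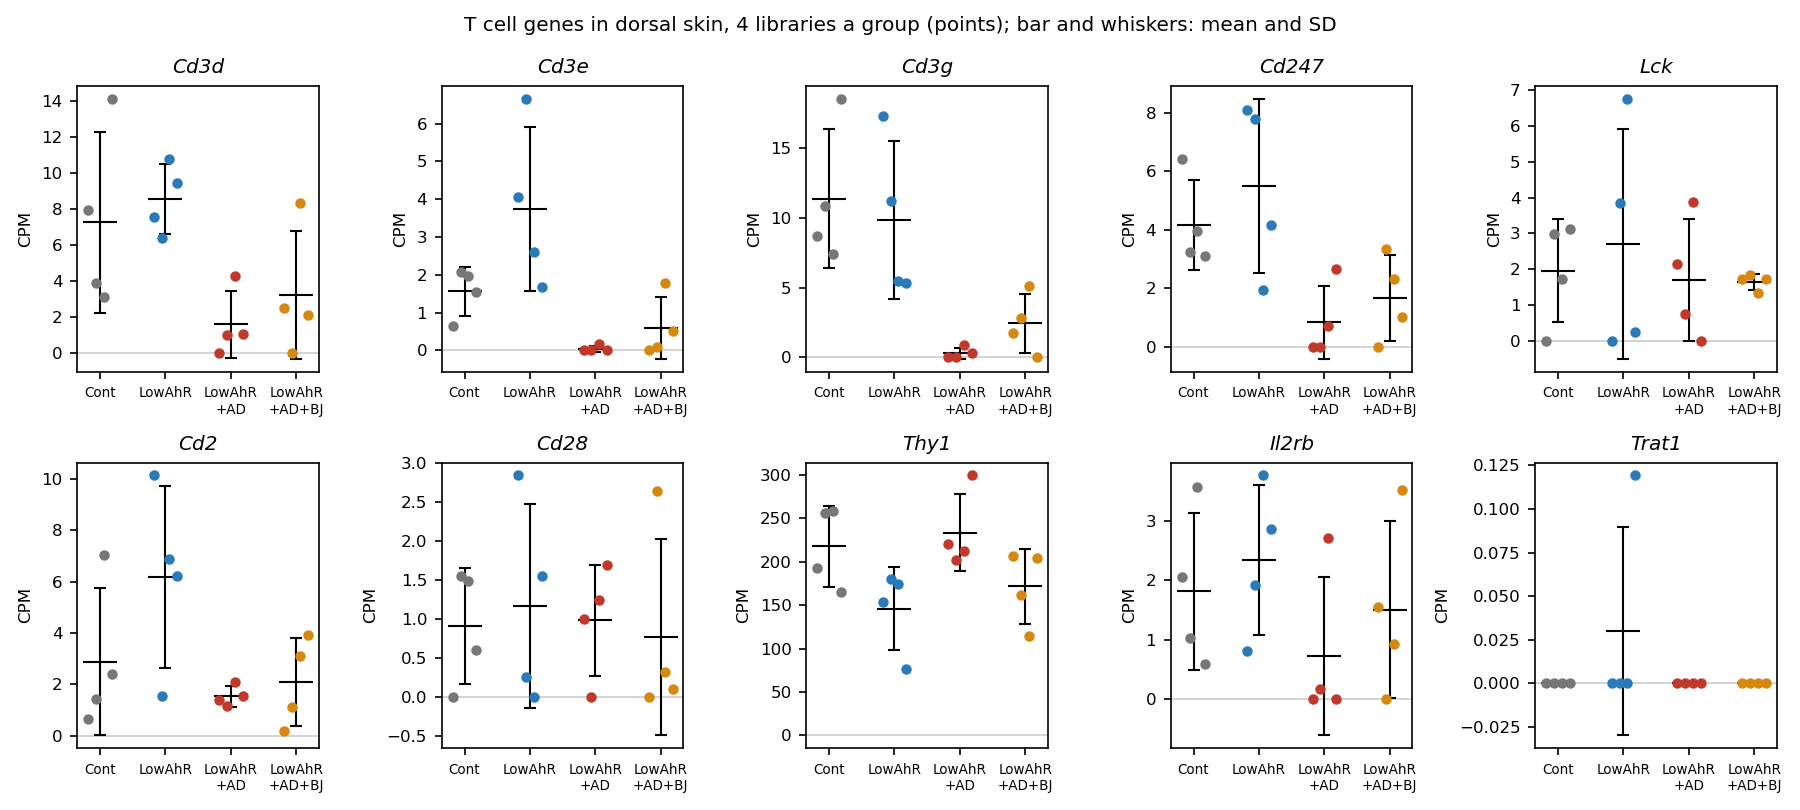
Levels of the 10 T cell genes in CPM (vertical axes, linear, one scale a panel) in the 4 groups, with points for the 4 libraries of a group, horizontal bars for the mean and whiskers for the SD. All 4 LowAhR+AD points of Cd3e and Cd3g lie below every LowAhR point, Thy1 runs the other way, and Trat1 has 1 library above 0.

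Lck, the kinase that starts receptor signalling, was not called in LowAhR+AD against LowAhR. It was at 0, 2.97, 1.73 and 3.11 CPM in Cont, at 0, 3.84, 6.76 and 0.239 CPM in LowAhR, at 2.14, 0.738, 3.88 and 0 CPM in LowAhR+AD and at 1.73, 1.83, 1.32 and 1.71 CPM in LowAhR+AD+BJ. Libraries at or near 0 occurred in each of the first 3 groups and the groups overlapped. LowAhR+AD differed from LowAhR by -0.68 on the log2 scale, with a 95% interval of -3.42 to 2.06 (edgeR adjusted p = 0.801), which leaves a change of either sign possible. The interval also holds the fitted values of Cd3d and Cd247, -2.43 and -2.70. LowAhR+AD replicate 1, in which all 4 CD3 chain genes were at 0, had 28 counts of Lck. Without it the log2 fold change was -0.82 (edgeR adjusted p = 0.793).

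Cd2, an adhesion receptor of T and NK cells, was at 0.641, 1.42, 7.03 and 2.39 CPM in Cont and at 10.1, 1.53, 6.89 and 6.20 CPM in LowAhR. LowAhR+AD gave 1.37, 1.15, 2.10 and 1.52 CPM, and LowAhR+AD+BJ gave 0.182, 1.12, 3.11 and 3.93 CPM. In LowAhR+AD, 3 of 4 libraries lay below all LowAhR libraries and within the range of Cont. The log2 fold change against LowAhR was -2.00 (SE 0.91, edgeR adjusted p = 0.157, exact permutation p = 0.0571), and -1.95 without LowAhR+AD replicate 1 (edgeR adjusted p = 0.226).

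Cd28, the main costimulatory receptor of naive T cells, was scarce everywhere, at 0 to 1.55 CPM in Cont, 0 to 2.84 in LowAhR, 0 to 1.69 in LowAhR+AD and 0 to 2.65 in LowAhR+AD+BJ. Each group had 1 library at 0. On the log2 scale LowAhR+AD differed from LowAhR by -0.24, with a 95% interval of -3.35 to 2.87 (edgeR adjusted p = 0.944), and by -0.25 without LowAhR+AD replicate 1. Trat1 had 1 count in LowAhR replicate 4 and 0 in the other 15 libraries, so no difference was detectable at this depth.

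Il2rb, shared by the IL-2 and IL-15 receptors of T and NK cells, was at 2.05, 1.03, 3.58 and 0.598 CPM in Cont and at 0.811, 1.92, 3.77 and 2.86 CPM in LowAhR. In LowAhR+AD it was at 0, 0.164, 2.72 and 0 CPM, and in LowAhR+AD+BJ at 1.55, 0, 0.933 and 3.53 CPM. LowAhR+AD replicate 3 was in the range of Cont and LowAhR and the other 3 libraries were at or near 0. Its log2 fold change against LowAhR was -1.68 (SE 1.44, edgeR adjusted p = 0.481). That value turned on replicate 3 of LowAhR+AD, without which it was -5.14 (edgeR adjusted p = 0.0577), while without replicate 1 it was -1.28 (edgeR adjusted p = 0.637).

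Thy1 was by far the best counted of the 10 genes, with 636 to 3730 counts a library. It was at 193, 256, 258 and 165 CPM in Cont, at 153, 180, 174 and 75.8 CPM in LowAhR, at 221, 202, 212 and 299 CPM in LowAhR+AD and at 206, 162, 115 and 204 CPM in LowAhR+AD+BJ. Its LowAhR+AD libraries lay above every LowAhR library, the opposite order to the CD3 chain genes, and overlapped those of Cont. The log2 fold change against LowAhR was 0.68 (SE 0.27, edgeR adjusted p = 0.105, exact permutation p = 0.0286), and against Cont it was 0.10 (edgeR adjusted p = 0.834). Against LowAhR it was 0.70 without LowAhR+AD replicate 1 (edgeR adjusted p = 0.130).

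In LowAhR+AD against LowAhR, the effect of DNCB on the same diet, 2 of the 9 tested genes were called, both lower, at an adjusted p under 0.05. Over all tested rows 6.21% were called lower and 12.6% in either direction. The median log2 fold change of the 9 was -2.00, with 8 below 0, against a median of 0.04 over all rows. By limma voom the median of the 9 was -3.63. Groups did not overlap for 3 of the 9 on the low side, where the share of all rows was 9.85%, and for Thy1 on the high side, where it was 8.92%. Cd3e and Cd3g stayed below the threshold when any 1 of the 8 libraries was left out, with edgeR adjusted p-values of 0.0135 to 0.0431 for Cd3e and 0.00523 to 0.0272 for Cd3g. In skin taken whole, fewer T cells, less RNA per T cell and a larger share of RNA from other cells cannot be told apart.

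In LowAhR+AD against Cont, which joins diet and DNCB and shares its LowAhR+AD libraries with the comparison above, 2 of 9 genes were called lower, where 9.47% of all rows were called lower and 21.8% in either direction. Cd3g differed by -5.21 (SE 1.14, edgeR adjusted p = 0.00368) and Cd3e by -4.92 (SE 1.46, edgeR adjusted p = 0.0222). Without LowAhR+AD replicate 2 or replicate 4, Cd3e missed the threshold (edgeR adjusted p = 0.0621 and 0.0622). Without replicate 1 it was at -4.60 (edgeR adjusted p = 0.0438) and Cd3g at -4.82 (edgeR adjusted p = 0.00472). Cd247 lay below Cont in every library at a log2 fold change of -2.30 (edgeR adjusted p = 0.210), which limma voom called at -4.10 (adjusted p = 0.0448), and Cd3d was at -2.20 (edgeR adjusted p = 0.161). Groups did not overlap on the low side for 3 of the 9 and for 11.8% of all rows.

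The low AhR ligand diet alone, LowAhR against Cont, called 0 of 9 genes, and edgeR called 0% of all rows. At an unadjusted p under 0.05, Thy1 was the only one of the 9 that was lower, where 5.83% of all rows were lower by that rule. Its log2 fold change was -0.58 (SE 0.27, edgeR adjusted p = 0.352). DESeq2 called 0 of the 9 and limma voom 0, and DESeq2 called 491 genes over all rows. Cd3e had the highest fold change, 1.26 with a 95% interval of -1.10 to 3.61 (edgeR adjusted p = 0.712), and 3 of 4 LowAhR libraries lay above all Cont libraries. Cd2 was at 1.10 (adjusted p = 0.647) and Cd3g at -0.21 (adjusted p = 0.951).

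BJIKT in DNCB-painted skin, LowAhR+AD+BJ against LowAhR+AD, called 0 of 9 genes and edgeR called 0% of all rows. Cd3g and Cd3e had the highest fold changes of the 9. Cd3g differed by 3.00 (SE 1.07, p = 0.0116, adjusted p = 0.498 by edgeR), with 3 of 4 LowAhR+AD+BJ libraries above all of LowAhR+AD and the other one at 0 (exact permutation p = 0.171). Cd3e differed by 3.57 (SE 1.40, edgeR adjusted p = 0.50). Of its 29 counts, 23 came from LowAhR+AD+BJ replicate 3. Its pooled level was 16.9 times that of LowAhR+AD, with a 95% counting interval of 4.26 to 146, and without that replicate the log2 fold change was 2.02 (edgeR adjusted p = 0.643). Thus 2 of the 9 were higher at an unadjusted p under 0.05, where 4.51% of all rows were. This comparison shares its LowAhR+AD libraries with the one in which Cd3e and Cd3g fell. The 2 higher values are therefore not independent of that fall. DESeq2 and limma voom each called 0 of the 9, and DESeq2 called 17 genes over all rows. Without LowAhR+AD replicate 1, Cd3g was at 2.59 and Cd3e at 3.23 (edgeR adjusted p = 0.924 and 0.955). Thy1 differed by -0.44 (adjusted p = 0.606), Cd3d by 1.03 (adjusted p = 0.780), Cd247 by 0.99 (adjusted p = 0.822) and Il2rb by 1.04 (adjusted p = 0.840).

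Against LowAhR, the skin of LowAhR+AD+BJ had 0 of 9 genes called, where 3.12% of all rows were called lower and 6.77% in either direction. None of the 9 had an edgeR p under 0.05 before adjustment, where 10.5% of all rows were lower by that rule. DESeq2 and limma voom each called 0 of the 9, and DESeq2 called 1676 genes over all rows. Cd3g lay lower in every library, at a log2 fold change of -2.01 (SE 0.96, edgeR adjusted p = 0.229, exact permutation p = 0.0286), and 8.19% of all rows were lower without overlap. Cd3e was at -2.60 (SE 1.26, edgeR adjusted p = 0.233) and Cd3d at -1.39 (edgeR adjusted p = 0.486). In the order of mean Cd3g levels, Cont, LowAhR, LowAhR+AD+BJ and LowAhR+AD, no neighbours differed past the threshold.

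**Figure D2:**
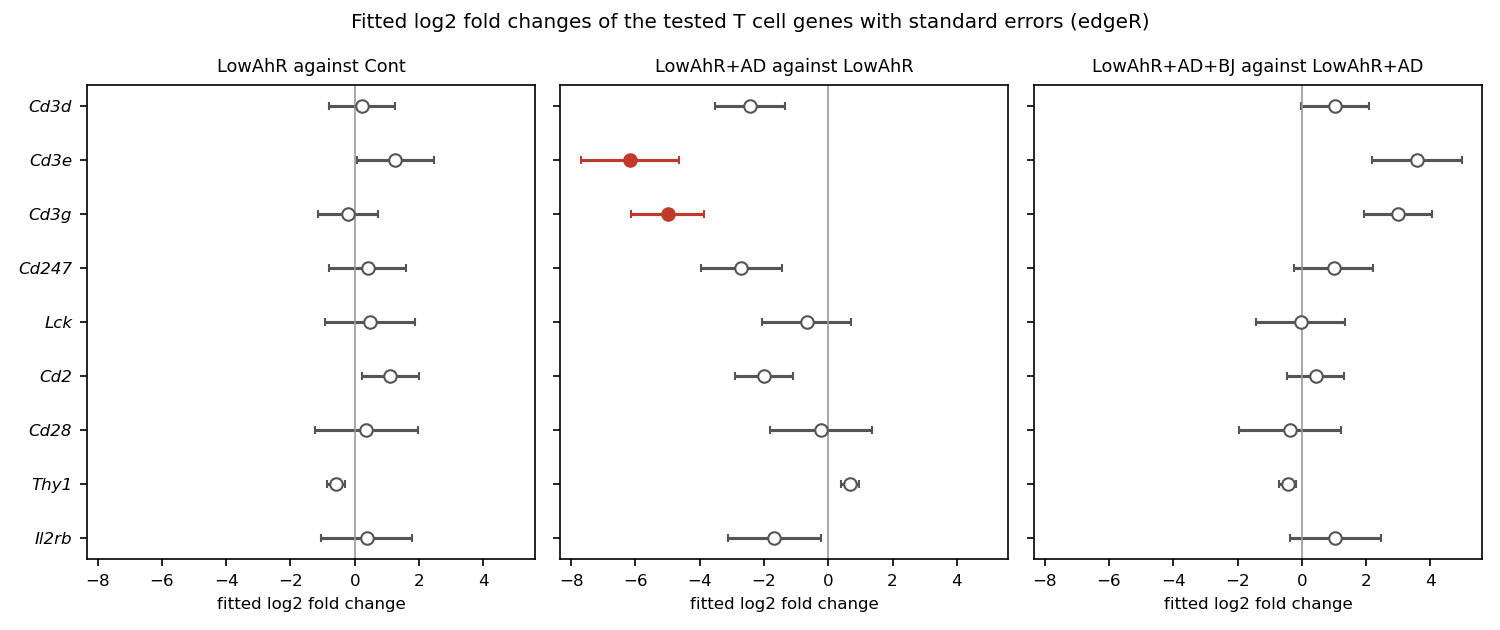
Fitted log2 fold changes (horizontal axes) of the 9 tested T cell genes (vertical axis) in 3 comparisons, with whiskers for the standard error and filled points where the adjusted p was under 0.05. Cd3e at -6.18 and Cd3g at -5.00 in LowAhR+AD against LowAhR are the filled points.

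The CD3 chain genes were also read against Ptprc, which codes for CD45 on all leukocytes. Summed over Cd3d, Cd3e, Cd3g and Cd247, the level was 16.4 to 37.3 CPM in Cont, 20.6 to 37.0 in LowAhR, 0 to 5.98 in LowAhR+AD and 3.63 to 17.6 in LowAhR+AD+BJ. All LowAhR+AD libraries lay below all Cont and LowAhR libraries. Ptprc itself was at 65.7 to 94.6 CPM in LowAhR and 12.4 to 52.0 CPM in LowAhR+AD, a fall of the group at a log2 fold change of -1.17 (SE 0.33, edgeR adjusted p = 0.0264) that missed the threshold when LowAhR replicate 1 or 3 or LowAhR+AD replicate 2 or 4 was left out, with edgeR adjusted p up to 0.0763. The ratio of summed CD3 chains to Ptprc was 0.192 to 0.496 in Cont, 0.220 to 0.454 in LowAhR, 0 to 0.115 in LowAhR+AD and 0.0819 to 0.247 in LowAhR+AD+BJ. The ratio in LowAhR+AD was below every Cont and LowAhR library, so these genes were lower relative to Ptprc as well.

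**Figure D3:**
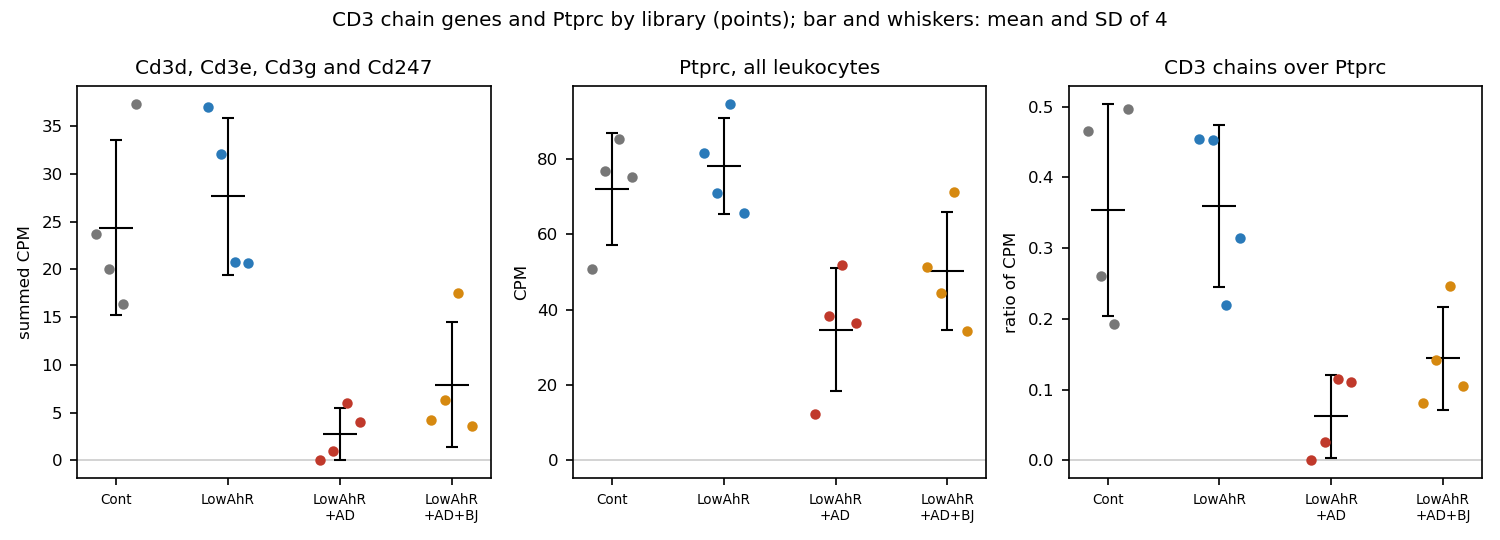
Summed CPM of the 4 CD3 chain genes, CPM of Ptprc and the ratio of the former to the latter (vertical axes) by group, with points for the 4 libraries, bars for the mean and whiskers for the SD. The ratio is 0 to 0.115 in LowAhR+AD and 0.220 to 0.454 in LowAhR.

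Across the 16 libraries the log2 CPM of the 4 CD3 chain genes went together at Pearson r of 0.50 to 0.79. Lck correlated with them at r of -0.26 to 0.13, and Thy1 at -0.38 to -0.26. These values describe libraries that share groups and depth. Of 14181 genes with a mean of at least 1 CPM, those most like the mean standardised level of the 9 tested genes were Adh1 (r = 0.926), Cldn10 (r = 0.924), Cd74 (r = 0.920), H2-Ab1 (r = 0.920), Il1r2 (r = 0.917), Sema3b (r = 0.913), Sparc (r = 0.912) and Prkcb (r = 0.912). Cd74 and H2-Ab1 belong to MHC class II presentation and Prkcb is a kinase of lymphocytes, while Sparc is a matrix protein of fibroblasts.

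The rest of the T cell programme was examined through fixed lists in LowAhR+AD against LowAhR. Of the signalling genes downstream of the receptor, 13 of 20 were tested and 0 were called by edgeR, with 1 at an unadjusted p under 0.05 and a median log2 fold change of -0.84. Prkcq, the kinase PKC theta, was the nearest at -0.79 (adjusted p = 0.124) and lay lower in every library. Whether its RNA came from T cells or from other cells of the skin was not tested. Against Cont, 4 of the 13 signalling genes were called lower in LowAhR+AD by edgeR, where 9.47% of all rows were. Their median log2 fold change in that comparison was -1.07. The coreceptors were counted thinly. Cd4 averaged 2.42 CPM in LowAhR and 1.24 in LowAhR+AD (-0.95, adjusted p = 0.661), and Cd8a averaged 0.523 and 0.178 CPM (-1.50, adjusted p = 0.634). Cd8b1 was at -0.78 (adjusted p = 0.826). The 9 symbols searched for receptor constant and variable segments had no row in the count tables, so these segments were not analysed.

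**Figure D4:**
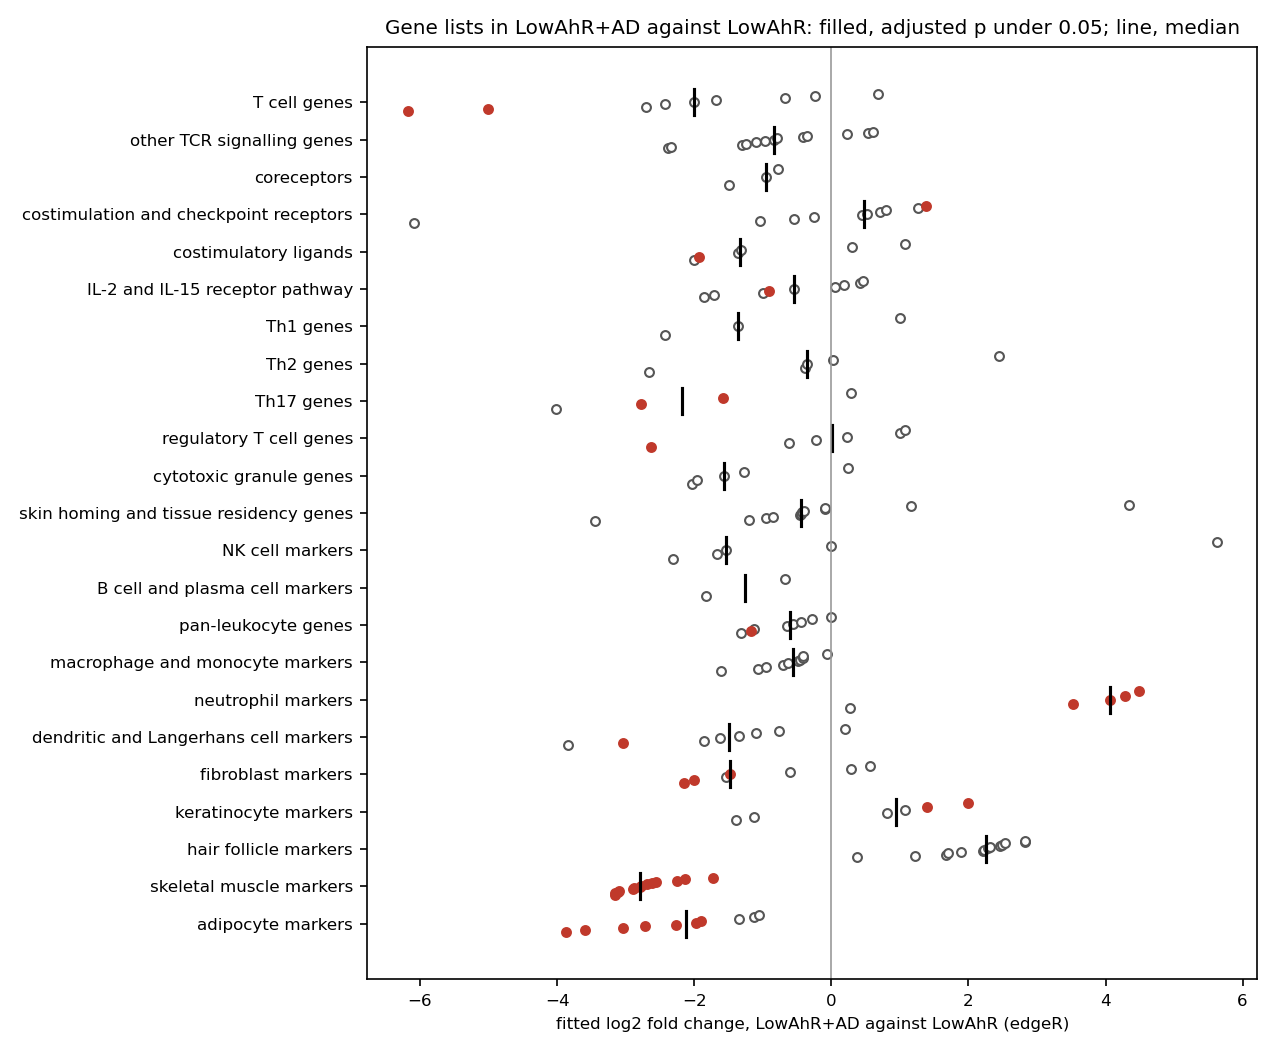
Fitted log2 fold changes in LowAhR+AD against LowAhR (horizontal axis) for the tested genes of each list (vertical axis), filled where the adjusted p was under 0.05, with a line at the median of the list. Cd3e and Cd3g lie farthest to the left among the T cell genes, all 14 skeletal muscle markers are filled on the left, and 4 neutrophil markers are filled on the right.

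Among costimulation and checkpoint receptors, 1 of 10 tested genes rose and 0 fell. In LowAhR+AD against LowAhR edgeR called 12.6% of all rows in either direction. In lists this short, 1 call cannot be told from that share. Cd44, an adhesion receptor of activated lymphocytes and of keratinocytes, rose by 1.38 (SE 0.28, adjusted p = 0.00436), and Cd69, an early activation and residency marker, was at -6.09 (adjusted p = 0.0562) with 1 count over the LowAhR+AD libraries. Among costimulatory ligands 1 of 6 fell, Cd274, which codes for PD-L1, at -1.93 (SE 0.40, adjusted p = 0.00482), and Cd86 lay lower in every library at -2.00 (adjusted p = 0.119). In the IL-2 and IL-15 pathway 1 of 9 fell, the transcription factor gene Stat5b, at -0.90 (SE 0.27, adjusted p = 0.0323). It missed the threshold when LowAhR replicate 1 or 2 or LowAhR+AD replicate 2 or 3 was left out (edgeR adjusted p up to 0.0946). Il15, a ligand of the Il2rb receptor, was at -1.85 (adjusted p = 0.196) and Il15ra at -1.72 (adjusted p = 0.194).

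Of the Th17 genes, Rora fell by 1.57 on the log2 scale (SE 0.26, adjusted p = 0.00110), from 505 to 169 CPM. It is also active in skin cells other than T cells. Th1 genes had 0 of 3 called and Th2 genes 0 of 5, with 1 and 0 at an unadjusted p under 0.05, and Il18r1 was at -2.42 (adjusted p = 0.0573, and 0.0329 without LowAhR+AD replicate 1) and Gata3 at -0.38 (adjusted p = 0.459). Of the regulatory T cell genes 1 of 6 was called, where 12.6% of all rows were called in either direction. It was Ikzf2, which fell by 2.63 (SE 0.51, adjusted p = 0.00343). Foxp3, the defining factor of regulatory T cells, was at 4.87 to 14.6 CPM in LowAhR and 10.7 to 39.0 in LowAhR+AD, a difference of 1.07 (SE 0.47, adjusted p = 0.147). The 39.0 CPM was LowAhR+AD replicate 1, the library that stood apart, and the median of its group was 10.9 CPM. Without that library the difference was 0.34 (adjusted p = 0.664). Cytotoxic granule genes had 0 of 5 called (0 at an unadjusted p under 0.05), with Nkg7 at -1.96 (adjusted p = 0.243) and Gzma at -2.03 (adjusted p = 0.431). Of 12 homing and residency genes 0 were called and 2 had an unadjusted p under 0.05. Itgae was at -3.44 (adjusted p = 0.0604). Itgae codes for the integrin that holds T cells in epithelium, and all its LowAhR+AD libraries lay below all of LowAhR. In this paragraph all p-values are edgeR's, adjusted over all rows.

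Other cell types moved in the same comparison, and their part in the values of the CD3 chain genes was not tested. Over all rows edgeR called 12.6% in either direction there. Of the NK cell markers 0 of 5 tested were called, and the summed level of the 9 was 6.76 to 28.0 CPM in LowAhR and 1.89 to 10.9 in LowAhR+AD. Ncr1, the defining NK receptor, was at 0 in all Cont and LowAhR+AD libraries and above 0 in 1 library of LowAhR. B cell markers had 0 of 2 tested called. Dendritic and Langerhans cell markers had 1 of 8 called, Cd209a at -3.03 (edgeR adjusted p = 0.0301), a call lost when LowAhR replicate 1, 2 or 4 or LowAhR+AD replicate 4 was left out (adjusted p up to 0.0753), and Cd207 was at -3.84 (adjusted p = 0.0720). Macrophage markers had 0 of 10 called with all 10 below 0.

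Of 5 tested neutrophil markers 4 rose, among them S100a8 by 4.29 (edgeR adjusted p = 0.00107), which keratinocytes also make. All 14 skeletal muscle markers and 7 of 10 adipocyte markers fell, with medians of -2.79 and -2.12, and the summed muscle level went from 12219 to 28409 CPM in LowAhR to 596 to 4770 in LowAhR+AD. Adipocyte markers summed to 8501 to 13038 CPM in LowAhR and to 348 to 3982 in LowAhR+AD. Hair follicle markers had 0 of 14 called, with 4 at an unadjusted p under 0.05, all 14 above 0 and a median of 2.26, and they summed to 106 to 12807 CPM in LowAhR and to 7071 to 35458 in LowAhR+AD. Against Cont, 12 of the 14 were called higher in LowAhR+AD, where 21.8% of all rows were called in either direction. Fibroblast markers, among which Pdgfra and Pdgfrb were at 0.29 and 0.56 and not called, had 3 of 7 called lower. Keratinocyte markers had 2 of 6 called higher, with Krt14 at 1.99 (edgeR adjusted p = 0.000301). That list was mixed, with 4 genes above 0 and 2 below. Krt10 was at -1.13 and Krtdap at -1.39 (edgeR adjusted p = 0.507 and 0.0685). With library sizes that leave out hair follicle, muscle and fat markers, Cd3g was at -5.00 (edgeR adjusted p = 0.00852) and Cd3e at -6.17 (edgeR adjusted p = 0.0143). This alternative moved the median log2 fold change of all genes by 0.005, so it hardly changed the scaling. It does not test the share of other cell types in the skin.

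In LowAhR+AD+BJ against LowAhR+AD, edgeR called 0 genes in every list. Cd69 had 1 to 12 counts a library in LowAhR+AD+BJ and 0 to 1 in LowAhR+AD, so no order of the libraries could be read at the low end, and its log2 fold change was 4.12 (SE 1.89, edgeR adjusted p = 0.522). Itgae was at 2.67 (edgeR adjusted p = 0.505), Cd8a at 2.41 (edgeR adjusted p = 0.696) and Cd8b1 at 2.29 (edgeR adjusted p = 0.720), with 2 of 4 LowAhR+AD+BJ libraries above all LowAhR+AD libraries for each. Ptprc was at 0.53 (edgeR adjusted p = 0.607) and Cd4 at 0.32 (edgeR adjusted p = 0.951). Foxp3 was at -0.73 (edgeR adjusted p = 0.627), with the groups overlapping.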

How the data were processed

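Total RNA of dorsal skin was made into QuantSeq 3' libraries and sequenced as single reads. The authors deposited whole-number counts per gene for each of the 16 libraries, not normalized. The submitters' processing notes name Bowtie2, bedtools and the mm10 build without versions. Strand use, multiple mapping and removal of PCR duplicates are not given in the sources used here, so intervals cover counting error only. No row lacked a gene name, and no per-sample column was left unused.

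Groups came from the sample labels. Nothing in the labels says how the samples relate to cages, and p-values measure the spread between these samples. Replicates of a group differed by a chi-square per degree of freedom of 16.9 to 299.5, so none was a repeat of another. Samples with the same replicate number did not deviate together (correlations of -0.05 to 0.17), so the main test had no replicate term.

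Counts were tested in R 4.3.3 with edgeR 4.0.16 (TMM factors, filterByExpr set to min.count 10 and min.total.count 15, quasi-likelihood test) in 1 model of all 4 groups. P-values were adjusted by Benjamini-Hochberg over all tested rows and genes were called under 0.05. The SE is the size of the log2 fold change over the root of F, and 95% intervals are normal intervals from it. The exact permutation test was two-sided, on log2 CPM with a prior count of 2, and is not adjusted over the 9 genes tested in each of 5 comparisons. Alternatives were RLE factors, DESeq2 1.42.0, limma 3.58.1 voom, other filters, the 8 libraries compared alone, a replicate block, thinned counts, other library sizes, a prior count of 0.5 and leaving out each library. The code was tested on simulated counts. The members and all gene lists were chosen with earlier results of these data known. Outside the 10 genes, the genes named are the 3 with the lowest p in LowAhR+AD against LowAhR in each list, a few defining markers, and the 8 most alike. A few genes that this rule names are not reported here. Pou2f1 was named for its overlap, after its values were seen. Gene positions came from GENCODE (GRCm38) and promoters from RefSeq.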

Additional observations from a re-analysis of the deposited data

Results flagged for a closer look

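In LowAhR+AD, Cd3e was at 0.155 CPM (2 counts) in replicate 3 and at 0 in the other 3 libraries, so 1 sample lay far from the others. In LowAhR, Trat1 was at 0.119 CPM (1 count) in replicate 4 and at 0 in the other 3. Cd69 was at 0.0820 CPM (1 count) in LowAhR+AD replicate 2 and at 0 in the rest of that group. These 3 sit under the 3 counts that a count of 0 allows. Cd69 was also at 2.34 CPM (19 counts) in Cont replicate 3 and at 0 in the other Cont libraries. Foxp3 was at 39.0 CPM in LowAhR+AD replicate 1 against 10.7 to 11.0 in the rest of its group, and at 6.20 CPM in LowAhR+AD+BJ replicate 1 against 11.4 to 12.8. They were 6 of 52 sets of 4 libraries examined, for the 10 genes and for Ptprc, Foxp3 and Cd69. The rule sets apart about 1 in 20 sets of normally spread values by chance. That rate does not hold where 3 of 4 libraries are at 0, since any count in the other is then flagged. Sets at 0 in all 4 libraries could not be flagged. The 6 of 52 can therefore not be set against that rate.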

How the results depend on the processing

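Cd3e and Cd3g kept their sign and their side of the threshold in LowAhR+AD against LowAhR in each of the 8 alternatives that tested them and without each library. With at least 10 counts required in every library only Thy1 was left to test, so the count of the T cell genes called was 0 there and in LowAhR+AD against Cont. The median over the T cell genes tested in LowAhR+AD against LowAhR was then that of Thy1, 0.66. With the 8 libraries alone, 1 was called in LowAhR+AD against Cont, because Cd3e did not pass the filter on low counts there and was not tested. Limma voom called 3 in LowAhR+AD against LowAhR and 3 against Cont, Cd247 being the added gene. With the replicate block, 2 T cell genes were called in LowAhR+AD against either LowAhR or Cont and 0 in the other comparisons. Over all rows it called 1689 genes in LowAhR+AD against LowAhR, and it changed no call of a T cell gene. Leaving out 1 library gave 2 to 2 in LowAhR+AD against LowAhR, 1 to 2 in LowAhR+AD against Cont and 0 to 0 in the others.

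Genes called over all rows were 0 in LowAhR against Cont, and 491 by DESeq2, 35 with at least 10 counts everywhere, 250 with 8 libraries and 0 to 159 without 1 library. In LowAhR+AD against LowAhR they were 1876, 765 with 8 libraries and 1128 to 2015 without 1 library. In LowAhR+AD+BJ against LowAhR+AD they were 0, 17 by DESeq2 and 0 to 1 without 1 library. In LowAhR+AD+BJ against LowAhR they were 1005, 1676 by DESeq2 and 414 to 1469 without 1 library, and in LowAhR+AD against Cont 3233 and 2460 to 3486. The cause of these shifts was not tested.

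Signs turned only for log2 fold changes that missed the threshold. By limma voom Lck was at -0.27 and Cd28 at -0.031 in LowAhR against Cont, Cd28 at 0.0012 in LowAhR+AD against LowAhR, and Lck at 1.20 and Cd2 at -0.18 in LowAhR+AD+BJ against LowAhR+AD. With the replicate block Lck was at -0.19 in LowAhR against Cont and 0.30 in LowAhR+AD+BJ against LowAhR+AD, where thinning gave 0.33. With a prior count of 0.5 the difference of Cd28 in LowAhR against Cont was -0.041. Without 1 library, the ranges that crossed 0 were as follows. In LowAhR against Cont, Cd28 ran from -0.57 to 0.75, Cd3d from -0.015 to 0.78, Cd3g from -0.63 to 0.13 and Lck from -0.52 to 0.88. In LowAhR+AD against LowAhR, Cd28 ran from -0.64 to 0.69, Lck from -1.48 to 0.32, Cd8b1 from -1.54 to 0.79 and Icosl from -0.23 to 1.39. In LowAhR+AD+BJ against LowAhR+AD, Lck ran from -0.45 to 0.77, Cd28 from -2.71 to 0.050, Cd3d from -0.052 to 2.25 and Cd2 from -0.056 to 0.82. The 8 libraries alone also ended the calls of Ptprc (adjusted p = 0.0871), Stat5b (0.0592), Cd209a (0.0837) and Krt5 (0.0860). Thinning the counts to the lowest library total ended that of Stat5b (0.0512). Scaling moved the median of all genes by less than 0.04.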
